A study of Mesocricetus auratus with 8 samples.

Results

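Superoxide dismutases, catalase, peroxiredoxins and the thioredoxin reductase gene Txnrd1 were followed in skeletal muscle satellite cells (SCs) of the Syrian hamster, a hibernator, before and after cold exposure. The 10 genes (Sod1, Sod2, Sod3, Cat, Prdx1, Prdx2, Prdx3, Prdx5, Prdx6 and Txnrd1) were taken by their symbols from the deposited expression table, in which all 10 had values among 17590 genes with values. SCs of wild type (WT) hamsters were isolated from hindlimb muscle of sexually mature males, enriched by preplating and grown on Matrigel in growth medium (GM). By the protocol, cells were kept at 37°C for 48 h and then for 24 h in GM with 100 mM HEPES, and RNA was taken before (control, n = 4) and after (cold, n = 4) a further 24 h at 4°C. HEPES is thus given for both groups. The titles place every control on day 3, whereas the treatment label of the controls runs from 3 days for replicate 1 to 6 days for replicate 4, and no library kept at 37°C for the extra day of the cold group was analysed here. Time in culture and temperature therefore cannot be told apart. The study calls the libraries biological replicates, and no source used here says whether each came from a different animal, so p-values measure the spread between these libraries only.

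Superoxide is formed when electrons leak from the respiratory chain and from oxidases, and superoxide dismutases turn it into hydrogen peroxide. Catalase breaks hydrogen peroxide down in peroxisomes, and peroxiredoxins reduce it, together with organic peroxides, in the cytosol, mitochondria and other compartments. Oxidised peroxiredoxins of the typical class are returned to work by thioredoxin, which is itself reduced by thioredoxin reductase at the expense of NADPH. The enzymes draw on copper, zinc, manganese, haem and selenium, so their activity depends on supply genes as well as on their own transcripts.

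Depth was similar across the libraries, between 16530747 and 18533801 expected counts per library. Markers of the labelled cell type were present in every library, with Pax7 between 10.8 and 16.1 TPM (a share of all transcripts in a library that allows for gene length) and Myod1 between 424 and 693 TPM. Fibroblast markers were present too, with a summed level over 10 genes of 1312 to 1863 TPM at 37°C and 1292 to 1801 TPM at 4°C. Of 8 macrophage and leukocyte markers, Ptprc, C1qa, C1qb and Cd74 had at most 3 counts in any library, while Cd68 (23.3 to 52.0 TPM), Cd14 (14.95 to 48.97 TPM), Fcer1g (12.03 to 32.13 TPM) and Csf1r (2.31 to 4.55 TPM) were present in all 8. Expression also varied with replicate number. The first principal component, with 54.5% of the variance, parted replicates 1 and 2 from replicates 3 and 4 at both temperatures. Control and cold libraries of one number deviated together from their group means, so results are also given from a fit in which each number was a block (the replicate block).

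The 10 genes spanned a wide range of levels, and 9 of them were well above the floor of detection. In order of mean TPM over the 8 libraries they were Prdx1 (1194), Sod1 (601), Prdx2 (418), Prdx3 (189), Prdx6 (174), Txnrd1 (145), Sod2 (41.2), Cat (39.8), Prdx5 (30.3) and Sod3 (0.106). Prdx1, Sod1 and Prdx2 ranked above 97% of the genes tested, Prdx1 being above 99.0% of them. Most neighbours in this order had separate ranges. Prdx3 and Prdx6 overlapped in range, although Prdx3 was higher in 8 of 8 libraries. Prdx6 and Txnrd1, and Sod2 and Cat, were in the stated order in 6 of 8 libraries each, so neither pair was separated beyond its spread. Together the 10 genes made up between 0.273% and 0.299% of all TPM.

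**Figure D1:**
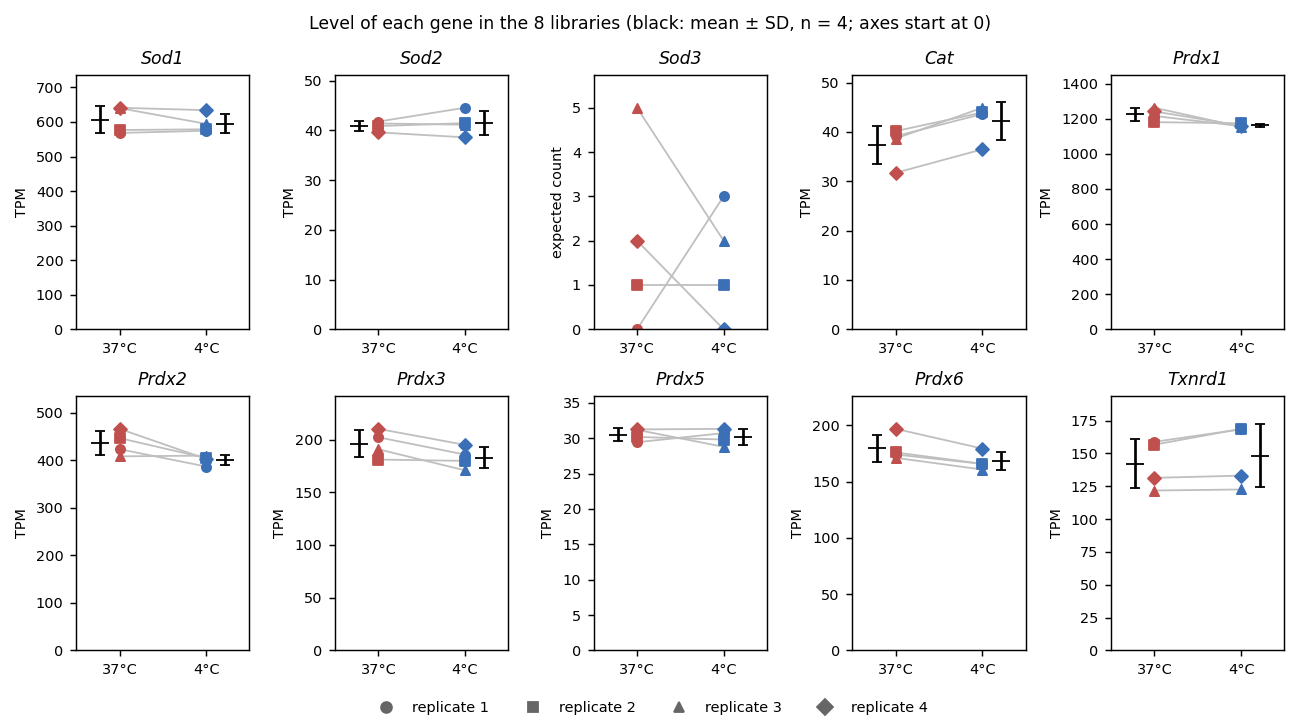
Level of each of the 10 genes at 37°C and at 4°C, in TPM (expected counts for Sod3), with 1 point per library, grey lines joining libraries of the same replicate number and mean ± SD in black (n = 4). The points of the 2 temperatures overlap for every gene except Prdx1, whose cold libraries all sit below the controls, between 1154 and 1174 TPM against 1181 to 1263 TPM.

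Among the dismutases, neither the cytosolic nor the mitochondrial enzyme gene differed between temperatures beyond the spread between replicates, and the secreted one was at the floor. In bulk libraries such as these, fewer cells of a type and less RNA per cell cannot be told apart. Sod1 encodes the copper and zinc enzyme of the cytosol and the space between the mitochondrial membranes. Its TPM in control replicates 1 to 4 was 568, 577, 640 and 641, and in cold replicates 1 to 4 it was 575, 579, 595 and 634. The cold libraries lay within the control range, and 2 of 4 pairs of the same number were lower in the cold. The log2 fold change of Sod1 was −0.030 (standard error 0.047, 95% interval −0.14 to 0.077, edgeR adjusted p = 0.999). Sod1 made up between 92.8% and 94.3% of the summed TPM of the 3 dismutase genes.

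Sod2 encodes the manganese enzyme of the mitochondrial matrix. In control libraries it was at 41.8, 40.9, 41.4 and 39.6 TPM, and in cold libraries at 44.6, 41.5, 41.1 and 38.6 TPM. The 2 groups overlapped, and the highest and lowest of the 8 values were both cold libraries. The edgeR log2 fold change, −0.00067 (standard error 0.063, 95% interval −0.14 to 0.14, adjusted p = 0.999), was the nearest to 0 of the 9 genes. Its sign changed with the scaling, with a log2 fold change of 0.0031 under library totals.

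Sod3 encodes the extracellular copper and zinc enzyme, which is secreted and bound to matrix. Its expected counts were 0, 1, 5 and 2 in control replicates 1 to 4 and 3, 1, 2 and 0 in cold replicates 1 to 4. These counts are at or near a floor of 3 counts per library, and Sod3 did not pass the filter on low counts. A change of Sod3 was not detectable at this depth, and no fold is given.

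Catalase was the gene with the largest positive fold change of the 9, and it did not pass the test across all genes. Cat encodes the haem enzyme of peroxisomes. Its TPM was 39.2, 40.2, 38.7 and 31.7 in control libraries and 43.6, 44.0, 44.9 and 36.5 in cold libraries. The cold library was higher in 4 of 4 pairs, by 9.41% to 16.1%, but cold replicate 4 lay below 3 of the controls, so the groups overlapped. A TPM that was higher in all 4 pairs was seen in 12.8% of genes tested. Replicate 4 was the lowest of its group at both temperatures, and the log2 fold change of Cat without the block was 0.066 when control replicate 4 was left out. Without the block the log2 fold change of Cat was 0.15 (standard error 0.10, 95% interval −0.082 to 0.39, edgeR adjusted p = 0.947). With the replicate block it was 0.16 (standard error 0.046, 95% interval 0.059 to 0.25, edgeR adjusted p = 0.0582), just outside the threshold. Under library totals with the block, a combination added after seeing the data, its adjusted p was 0.0497. Fitted to replicates 1 and 2 alone, Cat had a log2 fold change of 0.084 (edgeR adjusted p = 0.384), and fitted to replicates 3 and 4 alone one of 0.22 (edgeR adjusted p = 0.997). Cat was near the top of the genes by fold change, with 7.28% of the genes tested above it in the fit without the block.

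The 5 peroxiredoxin genes all had negative fold changes, as 47.1% of the genes tested did, and none passed the test across all genes. Prdx1, a typical peroxiredoxin of the cytosol and nucleus, was the most abundant of the 10 genes. It was at 1216, 1181, 1263 and 1242 TPM in control libraries and at 1158, 1174, 1154 and 1161 TPM in cold libraries. The cold values lay close together and all below the lowest control, which makes Prdx1 the only one of the 9 genes whose groups did not overlap. In an exact two-sided permutation test on TPM this gave p = 0.0286, the smallest that 4 libraries against 4 allow, and groups that did not overlap were seen in 4.68% of genes tested, 2.41% with the cold lower and 2.27% with the cold higher. The log2 fold change of Prdx1 was −0.088 (standard error 0.040, 95% interval −0.18 to 0.0017, edgeR adjusted p = 0.764), or −0.088 with an adjusted p of 0.148 with the replicate block. Counts of Prdx1 had decimals in 7 of 8 libraries, as happens when a counting program divides reads between similar genes, so its level is uncertain. The exact permutation p was 0.0571 when any 1 of the cold libraries was left out, where the groups still did not overlap, and 0.0286 when any 1 of the controls was.

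Prdx2 is a close relative of Prdx1 in the cytosol and is best known from red cells, where it is abundant. In control libraries it was at 423, 446, 408 and 466 TPM, and in cold libraries at 387, 404, 410 and 403 TPM. Control replicate 3 lay inside the cold range, and the other 3 controls lay above all cold libraries. Prdx2 had the lowest fold change of the 9 genes, a log2 fold change of −0.13 (standard error 0.055, 95% interval −0.26 to −0.011, edgeR adjusted p = 0.691). In the fit with the replicate block it was −0.13 (standard error 0.040, 95% interval −0.22 to −0.046, edgeR adjusted p = 0.0702). Without the pair numbered 3 in the blocked edgeR fit, the log2 fold change was −0.18 with an adjusted p of 0.0272, and in replicates 1 and 2 alone it was −0.18 with an adjusted p of 0.0141. In replicates 3 and 4 alone it was −0.097 with an edgeR adjusted p of 0.997. The fit to replicates 1 and 2 alone called 1442 genes in all, against 9 in the fit to all libraries.

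Prdx3 is the typical peroxiredoxin of the mitochondrial matrix, where it works with the mitochondrial thioredoxin Txn2. Its TPM was 202, 181, 191 and 210 at 37°C and 186, 180, 171 and 195 at 4°C. Every cold library was lower than its control of the same number, by between 0.696% and 10.5%, while the ranges of the groups overlapped. A TPM lower in the cold in all 4 pairs was seen in 10.5% of genes tested. In the edgeR fit Prdx3 differed by −0.11 on the log2 scale (standard error 0.063, adjusted p = 0.878), and by −0.11 under the block (adjusted p = 0.112).

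Prdx6, which works with glutathione rather than thioredoxin and also has phospholipase activity, showed a difference of the same size. It was at 174, 176, 171 and 197 TPM in the controls, against 166, 166, 161 and 179 TPM after the cold. All 4 pairs were lower in the cold, and cold replicate 4, the highest cold library, exceeded 3 of the controls. Its edgeR log2 fold change was −0.11 without (standard error 0.058, adjusted p = 0.853) and −0.11 under the block (adjusted p = 0.111). Prdx5, an atypical peroxiredoxin found in mitochondria, peroxisomes and cytosol, was the least abundant of the 5. Control libraries had 29.4, 30.2, 31.2 and 31.3 TPM of it and cold libraries 30.7, 29.8, 28.8 and 31.3 TPM, and 2 of 4 pairs were lower. With between 202 and 233 counts per library, its log2 fold change was −0.025 (standard error 0.074, 95% interval −0.19 to 0.14, edgeR adjusted p = 0.999).

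Summed over the 5 peroxiredoxin genes, the level was 2014 to 2146 TPM at 37°C and 1924 to 1969 TPM at 4°C. The sum is given as a description without a test, and Prdx1 was the largest part of it, between 57.9% and 61.2% of the sum in every library.

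**Figure D2:**
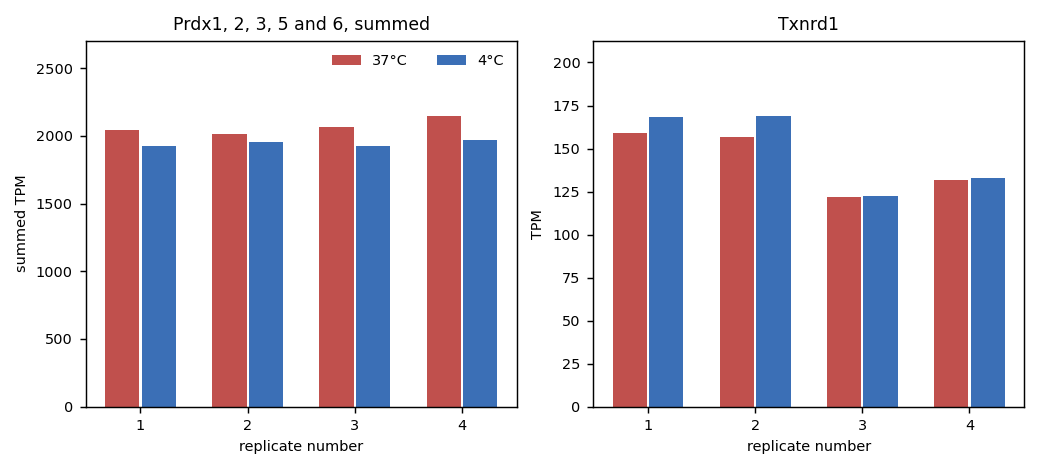
Summed TPM of Prdx1, Prdx2, Prdx3, Prdx5 and Prdx6 (left) and TPM of Txnrd1 (right) for each replicate number, with 1 bar per library, red for 37°C and blue for 4°C. The peroxiredoxin sum is lower in the cold for every number, whereas Txnrd1 differs between numbers (157 to 169 TPM in replicates 1 and 2, 122 to 133 TPM in replicates 3 and 4) more than between temperatures.

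Txnrd1 encodes the cytosolic thioredoxin reductase, a selenoprotein that passes electrons from NADPH to thioredoxin, and within each temperature it had the highest coefficient of variation of the 9 genes, 13.0% in control and 16.1% in cold libraries. Its TPM was 159, 157, 122 and 131 in control and 168, 169, 123 and 133 in cold libraries. Replicates 1 and 2 were high and replicates 3 and 4 low at both temperatures, with no overlap between those 2 sets of 4 libraries. The mean was 163 TPM in replicates 1 and 2 and 127 TPM in replicates 3 and 4, whereas the mean of the cold libraries differed from that of the controls by 4.23%. Such a split by number was seen in 32.6% of genes tested, and among the other 8 genes it was seen in Sod1, at 568 to 579 TPM in replicates 1 and 2 and 595 to 641 TPM in replicates 3 and 4. The summed fibroblast markers moved with the same numbers, at 1292 to 1407 TPM in replicates 1 and 2 and 1548 to 1863 TPM in replicates 3 and 4. Col1a1, Col1a2 and Postn of this list did not, each being lowest in replicate 3 at both temperatures. The others of the list were higher in replicates 3 and 4. The summed levels of 8 macrophage and leukocyte markers also moved with the numbers. They were 56.2 to 63.4 TPM in replicates 1 and 2 and 97.4 to 130 TPM in replicates 3 and 4. Of these 8 markers, 4 had at most 3 counts in any library. The 7 endothelial markers summed to 2.75 to 3.10 TPM and 3.51 to 5.08 TPM in the same order. Of these 7, 3 passed the filter on low counts and 1 (Cdh5) had a mean of at least 1 TPM. In sum, differentiating myocyte markers ran the other way within each temperature, as Txnrd1 did, though Mymx and Acta1 did not at 4°C. At 37°C the list summed to 3734 and 3627 TPM in replicates 1 and 2, against 1863 and 2095 TPM in replicates 3 and 4. At 4°C it summed to 1330 and 1536 TPM against 1017 and 888 TPM. The sum of 6 pericyte and smooth muscle markers was also higher in replicates 1 and 2. It was 2018 and 1847 TPM against 1191 and 1342 TPM at 37°C, and 1245 and 1323 TPM against 1028 and 1075 TPM at 4°C. Nearly all of it was Acta2, at 1950, 1779, 1125 and 1249 TPM in control replicates 1 to 4. Of the 6, only Acta2 was higher in replicates 1 and 2 at both temperatures. Myh11 ran the opposite way, at 2.07, 1.64, 2.86 and 2.90 TPM in control replicates 1 to 4. Cspg4 lay between 25.9 and 29.9 TPM in all libraries. The part of these markers in the levels of Txnrd1 and Sod1 was not tested.

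All 4 cold libraries were above their control of the same number in Txnrd1, by between 0.640% and 7.68%. The log2 fold change of Txnrd1 was 0.038 (standard error 0.15, 95% interval −0.29 to 0.37, edgeR adjusted p = 0.999). Under the replicate block the standard error was 0.035, and the log2 fold change of 0.037 had a 95% interval of −0.036 to 0.11 and an edgeR adjusted p of 0.632. The sign of the fit without the block turned with single libraries, to −0.047 without control replicate 3, −0.017 without control replicate 4, −0.033 without cold replicate 1 and −0.044 without cold replicate 2.

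Across the 9 genes that passed the filter on low counts, 7 fold changes were negative and 2, those of Cat and Txnrd1, were positive, where 47.1% of all genes were negative. The median log2 fold change was −0.030, beside 0.0071 over the 12506 genes tested. None of the 9 was called by edgeR at an adjusted p under 0.05 without the block, where 0.072% of all genes were called, or with it, where 5.33% were, 4.07% lower and 1.26% higher in the cold. The study also asked for a log2 fold change of −1 or below or of 1 or above, and by that definition the 9 genes gave 0 calls too, with 0.04% of all genes called without the block and 0.848% with it. At an unadjusted p under 0.05, 1 of the 9 (Prdx2) was counted without the block, where 6.7% of all genes were. With the block, 5 of the 9 (Cat, Prdx1, Prdx2, Prdx3 and Prdx6) were counted, where 18.2% of all genes were. DESeq2's Wald test called 0 of the 9 at an adjusted p under 0.05 with or without the block. Of the 16648 genes it fitted, it called 0.817% without the block and 2.1% with it. At an unadjusted p under 0.05 it counted 2 of the 9 without the block and 5 with it. Of the 12506 genes, 5.77% and 9.34% were so counted. The edgeR intervals also bound the size of any change. All 9 intervals lay between log2 fold changes of −0.29 and 0.39 without the block, that is between −18.2% and 31.0%, and between −13.9% and 19.3% with it.

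**Figure D3:**
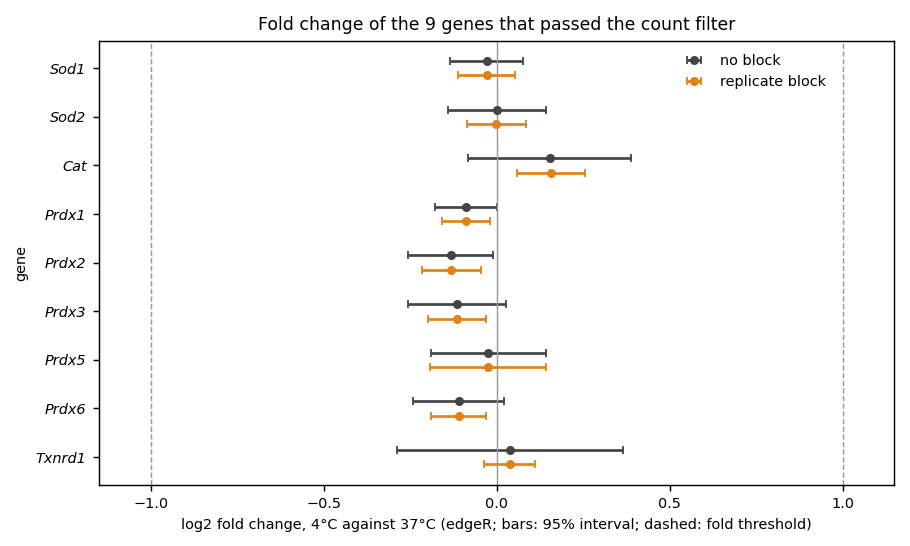
Log2 fold change at 4°C against 37°C with its 95% interval (edgeR) for the 9 genes, in dark grey without a block and in orange with the replicate number as a block. All intervals lie well inside the dashed lines at −1 and 1, and those of Cat and Txnrd1 narrow most when the block is used.

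**Figure D4:**
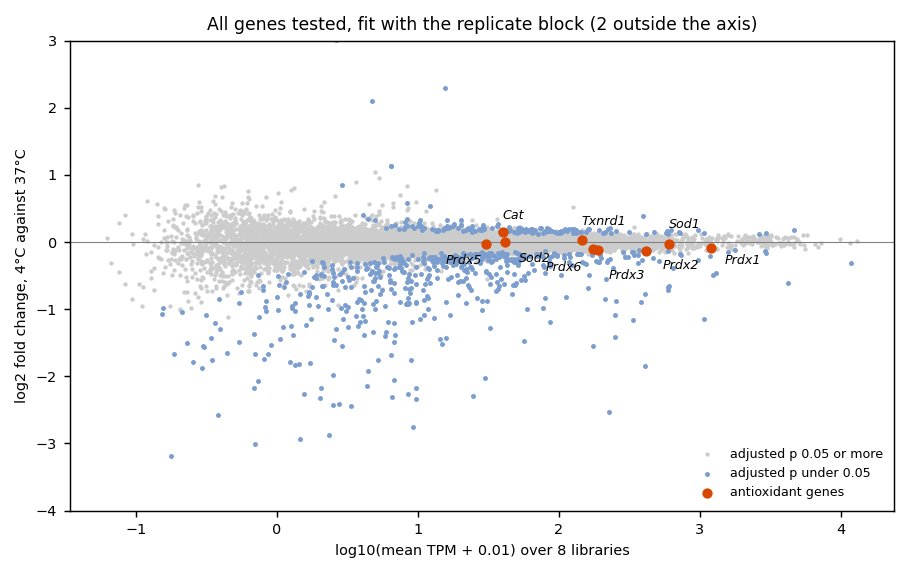
Log2 fold change in the fit with the replicate block against log10 of mean TPM plus 0.01, with 1 point per gene tested, blue where the adjusted p was under 0.05 and orange for the 9 antioxidant genes. The 9 genes sit close to 0, between log2 fold changes of −0.13 and 0.16, while of the genes called with the fold threshold 101 are lower and 5 higher in the cold. The axis leaves out 2 genes.

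Ratios of genes within a library do not depend on how libraries are scaled to each other, and 5 were compared between temperatures by an exact two-sided permutation test on log2 TPM ratios. The sixth ratio, Sod3 to Sod1, could not be formed because Sod3 was listed at 0 in 2 libraries. Cat to Sod1 had the largest difference, with a mean log2 ratio of −4.02 ± 0.230 (SD, n = 4) in control and −3.82 ± 0.199 (SD, n = 4) in cold libraries. It was higher in the cold in 4 of 4 pairs, and the groups overlapped (exact permutation p = 0.200). Txnrd1 to Prdx1 was −3.12 ± 0.228 (SD, n = 4) and −2.98 ± 0.229 (SD, n = 4), also higher in 4 of 4 pairs (exact permutation p = 0.457). Sod2 to Sod1, Prdx2 to Prdx1 and Prdx3 to Prdx1 differed by 0.042, −0.043 and −0.023 on the log2 scale. None of the 5 ratios passed 0.05 before or after adjustment over the 5. Within pairs of the same number, 3 ratios had 1 sign in all 4 pairs. Txnrd1 to Prdx1 was higher in the cold by 0.11 to 0.15 and Cat to Sod1 by 0.12 to 0.32, and Prdx3 to Prdx1 differed by −0.052 to −0.0022. Each gave p = 0.125 in the exact sign-flip test, the smallest that 4 pairs allow.

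The genes that supply, recycle or regulate these enzymes were read from 7 lists, in which 88 of 95 genes had values and 84 passed the filter on low counts. Of the other 7, Txn1 is another symbol of Txn, which had values, and Txnip, Cyba, Cybb, Aox1, Gpx2 and Trnau1ap were not analysed here. None of the 84 was called by edgeR at an adjusted p under 0.05 without or with the replicate block. At an unadjusted p under 0.05, 1 (1.19%) was counted without the block and 13 (15.5%) with it, below the 6.7% and 18.2% of all genes. List medians lay between −0.059 for the metal supply of dismutases and 0.036 for the NRF2 pathway. DESeq2 likewise called 0 of the 84, where 0.817% of all genes were called without the block and 2.1% with it.

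Thioredoxin, the electron donor of the typical peroxiredoxins, was more abundant than any peroxiredoxin. Its gene Txn was at 1774 ± 118 TPM (SD, n = 4) at 37°C and 1640 ± 36.7 TPM (SD, n = 4) at 4°C, a log2 fold change of −0.11 (edgeR adjusted p = 0.914, or 0.112 with the block). Txn2, the mitochondrial thioredoxin gene, was at 174 ± 3.36 and 164 ± 6.31 TPM (SD, n = 4 each), with an edgeR log2 fold change of −0.10 (adjusted p = 0.783, or 0.216 with the block). Prdx4, the peroxiredoxin of the endoplasmic reticulum, was at 163 ± 13.0 and 167 ± 14.7 TPM (SD, n = 4 each), with a log2 fold change of 0.021. Srxn1, whose product sulfiredoxin repairs overoxidised peroxiredoxins, was at 25.2 ± 2.60 and 25.3 ± 1.86 TPM (SD, n = 4 each). Of the 14 genes of this list that were tested, 8 had negative and 6 positive fold changes, with a median log2 fold change of −0.026.

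Among genes that load metal into the dismutases, Ccs, the copper chaperone of Sod1, lay between 67.6 and 95.5 TPM at 37°C and between 65.2 and 87.2 TPM at 4°C, with an edgeR log2 fold change of −0.044 (adjusted p = 0.999). The 8 tested genes of this list had 5 negative and 3 positive fold changes. For catalase, 16 genes of peroxisome assembly were tested, 7 with negative and 9 with positive fold changes and a median log2 fold change of 0.0036. The 5 tested genes of the selenocysteine machinery, on which Txnrd1 depends for its active site, had a median log2 fold change of 0.036.

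Nfe2l2 encodes NRF2, the transcription factor best known for raising Txnrd1, Prdx1 and Srxn1 under oxidative stress. It was at 58.1 ± 6.23 TPM at 37°C and 60.2 ± 3.73 TPM at 4°C (SD, n = 4 each), with an edgeR log2 fold change of 0.036 (adjusted p = 0.999). Of the 19 tested genes of the pathway list, 12 had positive and 7 negative fold changes. Sources of superoxide and hydrogen peroxide, among them oxidases of the NOX, monoamine and acyl-CoA classes, had a median log2 fold change of −0.025 over 12 tested genes. Glutaredoxins and glutathione peroxidases, the latter of which also use hydrogen peroxide as a substrate, had 3 negative and 7 positive fold changes and a median of 0.015 over 10 tested genes.

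**Figure D5:**
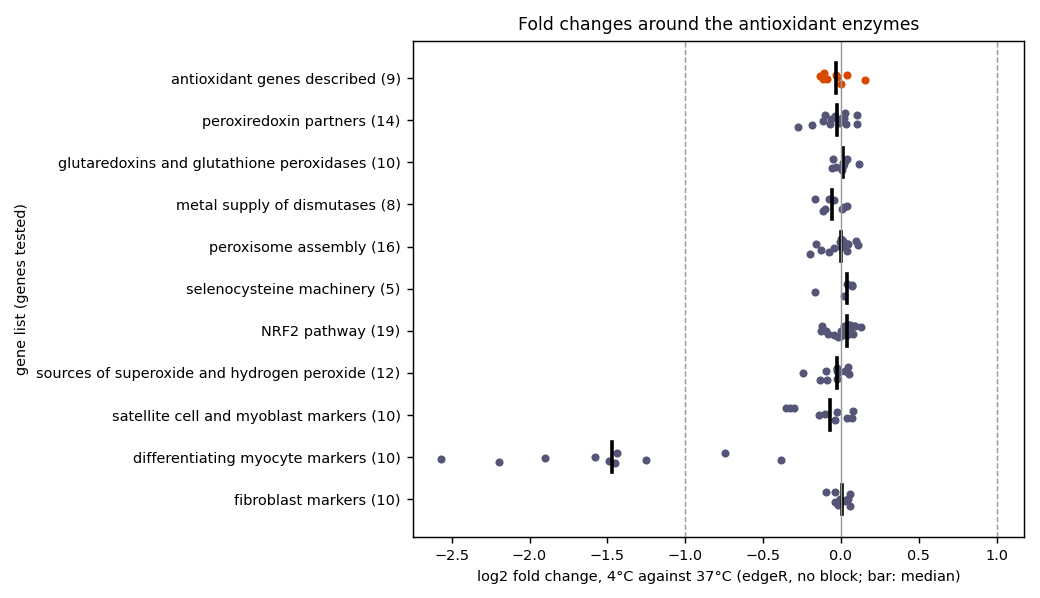
Log2 fold change at 4°C against 37°C (edgeR, no block) for the 9 antioxidant genes (orange), the 7 surrounding lists and 3 marker lists, with 1 point per gene tested and a black bar at each median. The antioxidant genes and the 7 lists lie near 0, with medians between −0.059 and 0.036, whereas the 10 markers of differentiating myocytes have a median of −1.47.

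The markers of differentiating myocytes give a scale for these differences. Their median log2 fold change was −1.47 over 10 genes, of which edgeR called 10 lower with the replicate block and 1 without it. Their summed level was 1863 to 3734 TPM at 37°C and 888 to 1536 TPM at 4°C. Part of this list was named by the study on these samples, so it is not independent evidence of its direction. The 10 satellite cell and myoblast markers had a median of −0.069 with 0 called lower without the block, and a median of −0.064 with 3 called lower with it. Of all genes, 0.072% were called lower without the block and 4.07% with it.

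The genes with the most similar pattern over the 8 libraries were found by Pearson correlation of log2(TPM + 1) with 8710 candidates. Each match was picked as the closest of these candidates over only 8 libraries. The split by replicate number was seen in 32.6% of genes tested, and its part in these correlations was not tested. Txnrd1 was most like Mylk (r = 0.994), the myosin light chain kinase of smooth muscle, and Dnajc7 (r = 0.992), a chaperone gene. Both were high in replicates 1 and 2, where Mylk was between 80.2 and 87.4 TPM, and low in replicates 3 and 4, between 47.8 and 56.5 TPM. Cat was most like Lrpap1 (r = 0.976), a chaperone gene of the LDL receptor family, and Cpt1a (r = 0.969), a carnitine palmitoyltransferase. Sod1 was most like Elmod3 (r = 0.986), Sod2 most like Serinc5 (r = 0.977), Prdx1 most like Map1lc3a (r = 0.955) and Prdx6 most like Elp6 (r = 0.967). The best matches of Prdx2, Prdx3 and Prdx5 were Rpl39 (r = 0.939), Herpud1 (r = 0.927) and Rpl23 (r = 0.865). None of the 9 genes was among the 2 closest matches of another, and Sod3, under the minimum of 5 TPM, was not included.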

How the data were processed

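RNA-seq libraries of hamster SCs were compared between 4 control and 4 cold libraries. Per the file headers, the deposited table gives each gene an expected count and a TPM value per library, which the authors derived from paired reads, and 96.4% to 96.6% of the count values per library had no decimals. The authors scaled TPM within each library. The authors' normalized counts, a signal scaled per library, were not used. HISAT and HISAT2 are named in the submitters' processing notes. The counting program and genome build are not given in the sources used here, so no coordinates are printed. Identifiers of all 17590 genes matched a RefSeq annotation.

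Expected counts were rounded and tested on the whole table with edgeR 4.0.16 in R 4.3.3 (filterByExpr, TMM, quasi-likelihood F test, Benjamini-Hochberg over 12506 genes). Standard errors are the size of the log2 fold change over the root of F, and intervals are at 95%. TPM and log2 TPM ratios were compared by exact two-sided permutation tests over 70 arrangements. Alternatives were DESeq2 1.42.0, limma 3.58.1 on log2 TPM, other scalings and filters, the replicate block, single libraries left out and fits to replicates 1 and 2 or 3 and 4. Blocked fits with other scalings, with limma or without 1 pair were added after seeing the data. Named genes are the 10 members, their direct partners, called genes of the 7 lists (none) and the closest matches of each member by correlation, among genes with at least 5 TPM and no LOC symbol. The members and lists were chosen with earlier results of these data known.

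The numbers in the titles and column names were used as pairs. Deviations from the group means correlated, across genes, at 0.61 to 0.66 for same-numbered libraries of the 2 temperatures, and at −0.61 to 0.59 otherwise. The margin was small between replicates 1 and 2, at 0.61 and 0.62 against 0.59 and 0.57 when swapped. Between replicates 3 and 4 it was wider, at 0.65 and 0.66 against 0.43 and 0.47. Simulated counts kept the levels of each number, with 200 changed genes of 12450 in the fit. Without the block, 90 of 100 genes changed 2-fold and 96 of 100 changed 3-fold were recovered, with 0 false calls. With the block 99 and 100 were, with 9 false calls. All genes had the same simulated spread, and no smaller change was simulated. Recovery of differences as small as those of the 9 antioxidant genes was therefore not tested. Intervals cover counting error and the spread between these libraries.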

Additional observations from a re-analysis of the deposited data

Results flagged for a closer look

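One value stood apart from the rest of its group. Cold replicate 4 had 36.5 TPM of Cat, whereas cold replicates 1 to 3 had 43.6 to 44.9 TPM. The gap was 0.849 of the range of the group, above Dixon's critical value for 4 samples. Control replicate 4 was also the lowest control, at 31.7 TPM. Without cold replicate 4 the exact permutation p of Cat on TPM was 0.0286 and its edgeR log2 fold change 0.22 (adjusted p = 0.847), against 0.15 with all libraries. Without control replicate 4 they were 0.229 (exact permutation p) and 0.066 (adjusted p = 0.912). Of 18 groups examined 1 was isolated in this way, where chance gives about 0.9.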

How the results depend on the processing

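Calls over all genes depended on the test. With the fold threshold edgeR called 5 genes, and without it 9. In the same order, DESeq2 called 68 and 136 genes, library totals 8 and 14, no filter on low counts 15 and 25, limma 3 and 4 at each pseudocount, replicates 1 and 2 alone 183 and 1442, and replicates 3 and 4 alone 28 and 50. The replicate block gave 106 and 667 genes, DESeq2 with the block 91 and 350, the block with library totals 105 and 673, with RLE factors 107 and 659, and with limma 45 and 286. With 1 library left out the counts ran from 0 (without control replicate 4, among others) to 34 and from 0 to 46 (both without control replicate 3), against 88 and 394, 101 and 356, 135 and 574, and 117 and 927 under the block without replicates 1, 2, 3 and 4. The cause of these differences was not tested.

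Of the 9 antioxidant genes, 1 was called in replicates 1 and 2 alone (Prdx2, with 11.6% of all genes called), 1 under the block with library totals (Cat, 5.38%), 1 under the block without replicate 3 (Prdx2, 4.6%), and 0 with any 1 library left out. Of the surrounding lists, 4 genes were called in replicates 1 and 2 alone and 1 under the block without replicate 4, where 7.44% of all genes were. By the exact permutation test on TPM, 1 of the 9 passed with all libraries. Passing there needs groups that do not overlap, as seen in 4.68% of genes tested. With 1 library left out 0 to 2 of the 9 passed, and the share of all genes passing was not computed. Of 234 alternative fold changes, 215 kept their sign and their side of the threshold, 16 changed sign and 3 passed the threshold. The replicate block changed no call of the 9 genes. Sod2 changed sign under library totals (0.0031), limma (0.017 at each pseudocount), the block with library totals (0.0026) the block with limma (0.017) and the block without replicate 2 (0.0016), and its level on the log2 CPM scale differed by −0.0013. With 1 library left out, log2 fold changes ran from −0.057 (without cold replicate 4) to −0.012 (without control replicate 4) for Sod1, −0.042 to 0.032 for Sod2, 0.066 to 0.22 for Cat, −0.044 to 0.0047 for Prdx5 and −0.047 to 0.12 for Txnrd1. TPM differences ran from −23.9 to 0.515 for Sod1, −0.505 to 1.48 for Sod2, −0.741 to 0.106 for Prdx5 and −0.833 to 14.6 for Txnrd1. Log2 ratios ran from −0.0100 to 0.11 for Sod2 to Sod1, 0.096 to 0.30 for Cat to Sod1, −0.089 to −0.013 for Prdx2 to Prdx1, −0.055 to 0.0054 for Prdx3 to Prdx1 and 0.045 to 0.21 for Txnrd1 to Prdx1. At this depth Sod3 was at or near the floor, and Prdx5 had the fewest counts of the genes tested among the 10.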
